A study of Mus musculus with 8 samples.

Results

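The Hox genes of the 4 mouse clusters were followed in kidneys of ICR embryos after injection of the mothers with the organophosphate insecticide chlorpyrifos (CPF) or its solvent. All rows whose symbol is Hox, a cluster letter from a to d and a paralog number were taken, and their transcripts were summed per symbol. This gave 39 Hox genes of 24151 genes in all: 11 of the Hoxa cluster, 10 of Hoxb, 9 of Hoxc and 9 of Hoxd. The mothers, 8 weeks old at mating, were given daily subcutaneous doses over gestation days 7.5 to 11.5, either of CPF at 5 mg/kg in dimethyl sulfoxide (DMSO) or of the same volume of DMSO. Kidneys were collected at 4 stages, E12.5 and then every 2 days up to E18.5, and each combination of agent and stage gave 1 RNA sequencing library, 8 in all. Where 4 values of an agent follow each other below, they are in this order of stages. No genetic change is named for either group, and the numbers of embryos and litters per library are not given in the sources used here. Values are TPM (transcripts per 1000000), a level per transcript length whose sum is the same in every library and which keeps no record of depth, so no counting error can be given.

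Hox genes encode homeodomain transcription factors that give cells their position along the body axis. Within a cluster the genes lie in the order of their paralog numbers, and genes with high numbers act further back in the body and start later than genes with low numbers. In the kidney the Hox11 paralogs Hoxa11, Hoxc11 and Hoxd11 act together in the metanephric mesenchyme upstream of Six2 and Gdnf, the Hox10 paralogs act in the stroma, and Hoxb7 is known for its activity in the ureteric bud.

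On GRCm38.p6, the RefSeq assembly that carries the coordinates used here, the Hoxa cluster lies on chromosome 6 and the Hoxb genes on chromosome 11 from 96194316 to 96368254. The Hoxc genes lie on chromosome 15 from 102921131 to 103036856, and the Hoxd genes on chromosome 2 from 74668225 to 74765142. The last 3 span 173.9, 115.7 and 96.92 kb. The 250 bases before an annotated start in RefSeq are shown for 3 genes at the high-numbered end of the Hoxd cluster, because their levels took different courses. Hoxd13 was near 0 after E12.5 in DMSO, and Hoxd10 had the highest mean level. Hoxd12 had the lowest CPF minus DMSO estimate of the tested Hox genes and the steepest fitted fall on the log2(TPM + 1) scale as deposited. All 3 are on the plus strand and read 5′ to 3′ up to the base before the start, with matches to TATAAA or CCAAT on either strand in capitals. The Hoxd13 window is chr2:74667975-74668224, the Hoxd12 window chr2:74674763-74675012 and the Hoxd10 window chr2:74691641-74691890, which lies inside the listed Hoxd10 interval of 74684273 to 74695106.
Hoxd13: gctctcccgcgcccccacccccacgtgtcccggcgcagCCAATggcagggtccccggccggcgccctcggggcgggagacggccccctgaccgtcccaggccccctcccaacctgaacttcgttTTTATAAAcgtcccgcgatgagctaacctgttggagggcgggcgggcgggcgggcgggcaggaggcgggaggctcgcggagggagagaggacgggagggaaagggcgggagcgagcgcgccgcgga
Hoxd12: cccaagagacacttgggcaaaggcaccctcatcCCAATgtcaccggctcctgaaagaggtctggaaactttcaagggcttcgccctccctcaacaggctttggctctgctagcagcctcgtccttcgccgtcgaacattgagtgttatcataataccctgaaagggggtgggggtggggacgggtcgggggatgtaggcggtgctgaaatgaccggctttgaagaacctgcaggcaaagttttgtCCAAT
Hoxd10: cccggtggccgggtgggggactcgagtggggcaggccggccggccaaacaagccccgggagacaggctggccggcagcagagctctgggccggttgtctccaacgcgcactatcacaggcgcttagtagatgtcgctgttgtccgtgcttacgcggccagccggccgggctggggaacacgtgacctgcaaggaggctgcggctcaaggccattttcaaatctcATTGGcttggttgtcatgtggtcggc
The windows hold 31, 10 and 20 CpG dinucleotides in that order. Hoxd12 has CCAAT ending at the base before the start, and Hoxd13 has a pair of overlapping TATAAA matches, 1 on each strand.

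In all, 22 of the 39 Hox genes had a window in the RefSeq table (24 windows), and 17 had none there. Their median GC content was 58.6%, against 52.4% over 32851 windows of all genes, and they held 2 to 35 CpG each. Searched on both strands, CCAAT was in 58.33% of the Hox windows and 33.85% of all windows, and TATAAA in 16.67 and 12.37%. The caudal-type motif TTTATG was in 20.83% of the Hox windows and 10.76% of all, and TGATNNAT, a site of Pbx and Hox proteins in which N is any base, in 16.67 and 7.683%. These motifs do not contain each other, but TATAAA and TTTATG can share bases where they meet. A direct repeat of the retinoic acid receptor element AGGTCA with 5 bases between was in 0 of the 24 Hox windows and in 0.009132% of all. Such matches describe these letters in these windows only.

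Several features of the libraries bear on all values that follow. The RNA components Rpph1 and Rmrp together took 19.3 to 21.8% of the TPM in the CPF libraries and 19.6 to 41.8% in the DMSO libraries, with the highest share in DMSO at E18.5, so every other gene of that library is scaled down. A second scaling, to the sum of coding transcripts, is therefore given where it moves a Hox result. Summed markers of other organs were also higher in the CPF library than in the DMSO library of the same stage in 28 of 32 pairs (8 lists, 4 stages). The liver and adrenal cortex sums in CPF were highest at E14.5 and E16.5, and the values of the 8 lists stand beside the CPF comparison. Markers of the labelled tissue were present: 10 nephron progenitor markers summed to 312 TPM or more in every library. Finally, 34 Hox genes have 1 RefSeq transcript in the files and 5 have several (Hoxa9, Hoxa10, Hoxb3, Hoxd8 and Hoxd11). Genes with several transcripts were mostly near 0 in these files, so those 5 are given as listed values with no fold. The intervals of 12 Hox genes overlap that of another listed gene, among them Hoxa11 with its antisense RNA Hoxa11os, Hoxd3 with Hoxd4 and Hoxd10 with Hoxd11. Strand use and the treatment of shared reads in the counting are not given in the sources, so the levels of those 12 genes are uncertain.

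The kidneys listed most of the 4 clusters. Between 30 and 34 of the 39 Hox genes reached 1 TPM in a library, and 19 to 27 reached 10 TPM. The summed Hox level was 1146, 770, 804 and 528 TPM in the DMSO libraries and 665, 496, 454 and 606 TPM in CPF libraries. At the first 3 stages the CPF sum was the lower of the pair, and at E18.5 the DMSO sum was lower; with the coding scaling the CPF sum was lower at all 4 stages, 819 against 990 at E18.5.

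**Figure D1:**
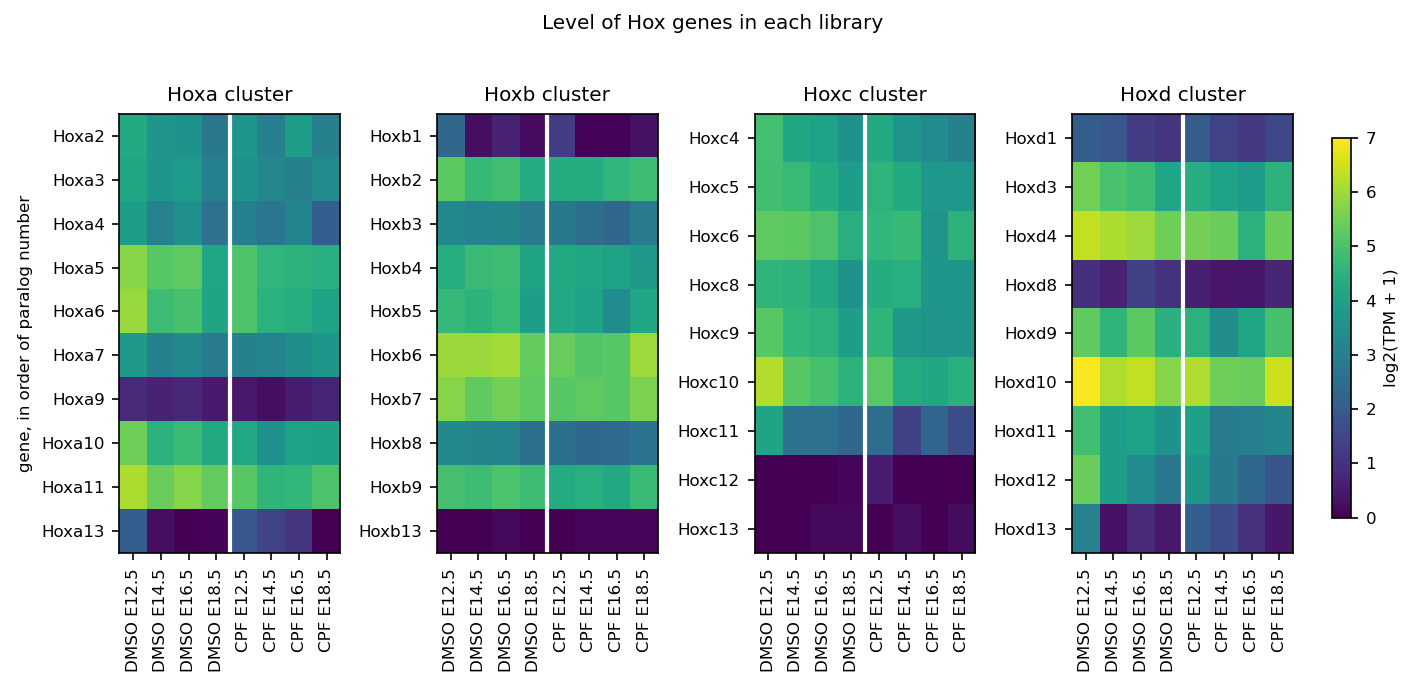
Level of Hox genes in each of the 8 libraries, as log2(TPM + 1), with 1 panel per cluster, genes in order of paralog number from top to bottom and a white line between DMSO and CPF libraries. Bright rows lie in the middle of the clusters and at paralogs 10 and 11, and paralogs 12 and 13 are dark except Hoxd12.

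By the mean over 8 libraries, Hoxd10 was first at 70.9 TPM, followed by Hoxd4 (50.7), Hoxb6 (49.5), Hoxb7 (41.1), Hoxa11 (39.4) and Hoxc10 (31.5). Hoxa5 (30.1), Hoxa6 (27.8), Hoxc6 (26.0) and Hoxb2 (24.7) complete the first 10, so all 4 clusters and paralog numbers from 2 to 11 are among the highest genes. In Hoxd10 the libraries ranged from 41.1 to 122 TPM and in Hoxc10 from 16.9 to 72.4 TPM, and this spread is wider than the distance between neighbours in that order. At the other end, Hoxb13, Hoxc12 and Hoxc13 did not exceed 0.479 TPM in any library. Hoxa9 and Hoxd8 were listed at no more than 0.823 and 1.61 TPM, and 2 of the 3 Hoxd8 transcripts and 1 of the 2 Hoxa9 transcripts were listed at 0 throughout.

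Paralogs 5 to 9 took 40.6 to 50.2% of the summed Hox level, paralogs 1 to 4 took 23.3 to 27.4%, and paralogs 10 and 11 took 20.8 to 30.6%. Such shares do not move with the library scaling. In both agents the share of paralogs 12 and 13 was highest at E12.5 and lowest at E18.5: 4.56, 1.85, 1.31 and 1.22% in DMSO and 2.80, 2.03, 1.38 and 0.547% in CPF. Among clusters, the Hoxb share read 21.3, 27.8, 29.6 and 31.2% in DMSO and 24.4, 30.5, 31.9 and 34.0% in CPF, higher at each later stage. The Hoxc share was 21.0, 21.6, 17.6 and 18.3% in DMSO and 22.3, 21.8, 17.0 and 14.6% in CPF, lower at E16.5 and E18.5 than at the earlier stages.

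Whether embryonic Hox expression differed after CPF was asked with 1 fit over the 8 libraries, in which each stage gave a CPF and a DMSO library. Most Hox genes read lower in CPF, by a median of 0.45 on the log2(TPM + 1) scale, but no single Hox gene passed the test. Of the 35 Hox genes at 1 TPM or more in at least 2 libraries, 31 had an estimate below 0, where 27.4% of all 13677 tested genes did. Hoxd8, among the 31, passed this filter only through DMSO libraries, at 1.61 TPM (E16.5) and 1.05 TPM (E18.5). Its place in this and later counts of lower genes therefore carries no weight. Since the median gene was 0.15 above 0, the Hox median was -0.60 relative to it. The 5 lowest estimates were those of Hoxd12, the 3 Hox11 paralogs and Hoxa10. In bulk tissue, fewer cells that express a gene and less RNA per cell cannot be told apart.

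Hoxd12, a gene of limb and genital development, read 41.4, 13.8, 9.54 and 5.85 TPM in the DMSO libraries and 12.1, 6.05, 4.09 and 2.68 TPM in CPF libraries. The CPF library was the lower at each stage, while the ranges over stages overlapped. The estimate was -1.18 ± 0.28 (SE, n = 4 stage pairs), the lowest of all Hox genes, with an adjusted p of 0.132 from limma.

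Among the Hox11 paralogs, Hoxa11 read 69.6, 41.2, 51.7 and 38.6 TPM in DMSO and 35.4, 23.1, 23.8 and 31.8 TPM in CPF. Every CPF library was below every DMSO library. Hoxa11 was 1.97-, 1.79-, 2.17- and 1.21-fold higher in DMSO than in CPF at the 4 stages, and its estimate was -0.78 ± 0.23 (SE, n = 4 stage pairs; limma adjusted p 0.226). Hoxc11 read 16.1, 5.17, 5.23 and 3.92 TPM in DMSO and 4.75, 1.54, 3.90 and 2.17 TPM in CPF. It was lower in CPF at every stage, least so at E16.5, and the ranges overlapped, with an estimate of -0.96 ± 0.31 (SE, n = 4 stage pairs; limma adjusted p 0.268). Hoxd11 was listed at 28.5, 14.2, 15.6 and 10.9 TPM in DMSO and 15.0, 6.33, 6.92 and 8.20 TPM in CPF, so all 3 Hox11 paralogs were lower in CPF at all 4 stages.

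Of the Hox10 paralogs, Hoxc10 read 72.4, 35.5, 30.1 and 22.0 TPM in DMSO and 35.7, 18.9, 16.9 and 20.7 TPM in CPF. In TPM as deposited the gap was widest at E12.5 (2.03-fold higher in DMSO) and nearly closed at E18.5 (1.06-fold). With the coding scaling it did not close, with log2 ratios of -0.98, -0.94, -1.01 and -0.55 at the 4 stages. The Hoxc10 estimate was -0.69 ± 0.25 (SE, n = 4 stage pairs, limma adjusted p 0.357). Hoxd10, the Hox gene of the highest mean, read 122, 70.5, 80.4 and 52.2 TPM in DMSO and 71.2, 43.2, 41.1 and 86.8 TPM in CPF. It was lower in CPF at the first 3 stages and higher at E18.5, which left an estimate of -0.42 ± 0.28 (SE, n = 4 stage pairs; limma adjusted p 0.720). Without E18.5 the Hoxd10 estimate was -0.80 and without E14.5 and E16.5 it was -0.02. Hoxa10 was listed at 42.9, 21.1, 25.5 and 18.2 TPM in DMSO and 17.7, 10.4, 15.8 and 15.1 TPM in CPF, with no overlap.

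**Figure D2:**
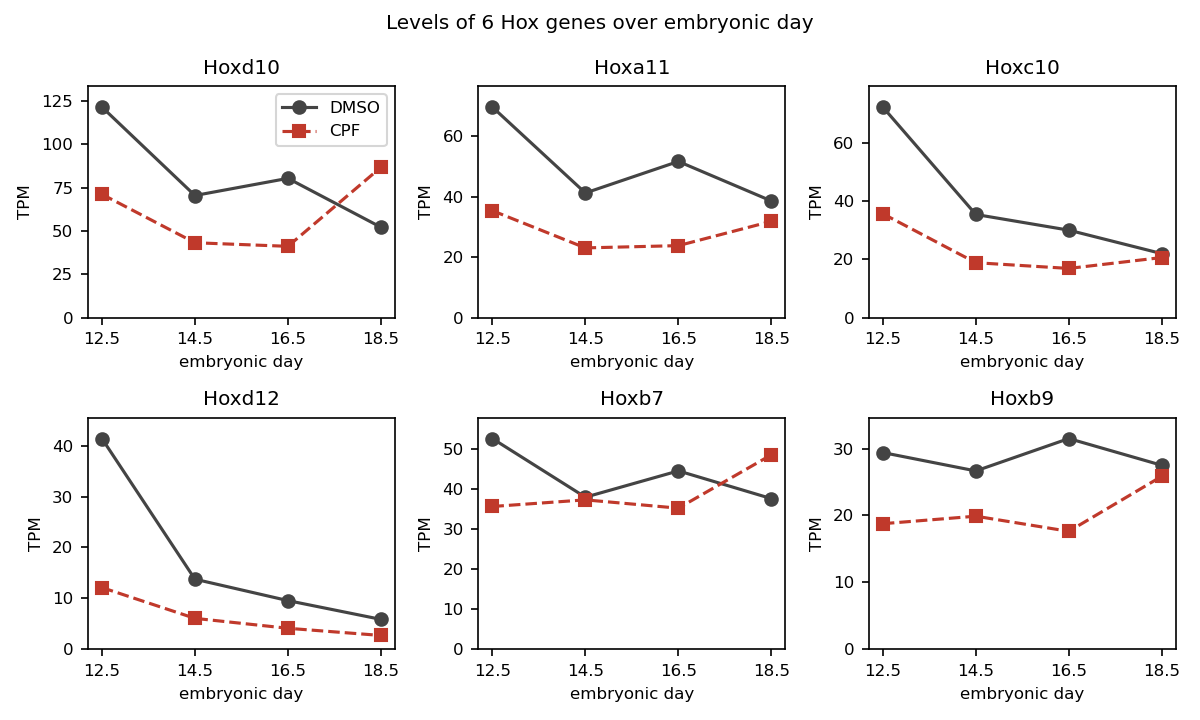
TPM of 6 Hox genes against embryonic day, with 1 library per point, DMSO as circles with solid lines and CPF as squares with dashed lines. The CPF points of Hoxa11 and Hoxb9 are all below the DMSO points, Hoxd12 declines in both agents, and Hoxd10 and Hoxb7 cross between E16.5 and E18.5. Values are TPM as deposited, and with the coding scaling Hoxb7 was lower in CPF at all 4 stages.

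In the middle and low-numbered part of the clusters, Hoxd4, which patterns the hindbrain and cervical spine, read 80.3, 69.2, 61.5 and 43.1 TPM in DMSO and 45.5, 41.5, 22.1 and 42.4 TPM in CPF, an estimate of -0.75 ± 0.25 (SE, n = 4 stage pairs; limma adjusted p 0.293). In TPM as deposited the E18.5 values were close together and the earlier 3 were 1.67- to 2.78-fold higher in DMSO. With the coding scaling the E18.5 log2 ratio of Hoxd4 was -0.49. Leaving out E16.5 took the estimate to -0.52 and leaving out E14.5 and E16.5 to -0.41. Hoxb9, a gene of the thoracic segments, read 29.4, 26.7, 31.5 and 27.5 TPM in DMSO and 18.8, 19.9, 17.6 and 25.9 TPM in CPF, with no overlap. Its estimate was -0.48 ± 0.24 (SE, n = 4 stage pairs; limma adjusted p 0.587).

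Hoxb7, the ureteric bud gene, read 52.5, 37.9, 44.4 and 37.5 TPM in DMSO and 35.6, 37.2, 35.1 and 48.5 TPM in CPF. The groups overlapped and the sign turned at E18.5, with an estimate of -0.14 ± 0.23 (SE, n = 4 stage pairs, limma adjusted p 0.914). With the coding scaling Hoxb7 was lower in CPF at all 4 stages, with a log2 ratio of -0.10 at E18.5. Its neighbour Hoxb6 read 60.5, 60.1, 64.6 and 39.7 TPM in DMSO and 40.5, 33.9, 35.0 and 62.2 TPM in CPF, also lower at the first 3 stages and higher at E18.5. Hoxb2 read 36.7, 24.6, 28.4 and 18.7 TPM against 19.2, 19.3, 23.5 and 27.4 TPM, with the same turn as Hoxb6. With the coding scaling the E18.5 log2 ratios of Hoxb6 and Hoxb2 stayed above 0, at 0.18 and 0.08. Hoxa5 (-0.43 ± 0.25), Hoxa6 (-0.45 ± 0.25) and Hoxc6 (-0.62 ± 0.28, SE, n = 4 stage pairs) were again below 0.

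Of the other genes, those of the hindbrain and neck lay at middle to low levels: Hoxa2 ranged from 5.99 to 18.51 TPM over the 8 libraries, Hoxa3 from 7.05 to 17.1, Hoxa4 from 3.28 to 13.8, Hoxb4 from 12.8 to 27.2 and Hoxd1 from 1.08 to 3.201 TPM, while Hoxb3 was listed at 3.95 to 8.78 TPM. Further along the axis, Hoxb5 ranged from 9.53 to 25.2 TPM, Hoxb8 from 4.05 to 8.98 and Hoxc8 from 11.02 to 22.9 TPM. All of these with 1 transcript had estimates below 0, between -0.56 (Hoxb8) and -0.05 (Hoxd1), and so had Hoxb1, Hoxb2, Hoxb6, Hoxc4, Hoxc5, Hoxc9, Hoxd3 and Hoxd9, between -0.67 (Hoxd3) and -0.24 (Hoxb2). None passed the test.

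A few genes went the other way. Hoxa13, a gene of the cloaca and distal limb, read 3.25, 0.225, 0.00 and 0.0463 TPM in DMSO and 2.77, 1.65, 1.11 and 0.00 TPM in CPF. Hoxd13, its paralog, read 7.56, 0.278, 0.786 and 0.391 TPM in DMSO and 3.25, 2.12, 0.979 and 0.379 TPM in CPF. Both paralogs were present at E12.5 in both agents, and at E14.5 they were at 1.65 and 2.12 TPM in CPF against under 0.3 TPM in DMSO. The estimates were 0.49 ± 0.32 for Hoxa13 and 0.10 ± 0.36 for Hoxd13 (SE, n = 4 stage pairs; limma adjusted p 0.721 and 0.960), and without E14.5 and E16.5 they were -0.12 and -0.51. The sum of 10 hindlimb and lower urinary tract markers was 43.4 TPM in CPF and 12.49 TPM in DMSO at E14.5, and 123 and 38.2 TPM at E16.5. Of its 8 tested members 7 had a CPF minus DMSO estimate above 0 and only Upk3a was below, where 9934 of all 13677 tested genes were above. Pitx1 was at 1.42 against 0.885 TPM at E14.5 and 22.4 against 0.138 TPM at E16.5. Upk3a was lower in CPF at both stages (0.512 against 1.07 and 17.2 against 21.8 TPM). Tbx4 did not exceed 0.0671 TPM anywhere, but it has 2 transcripts, and genes with several were mostly near 0 in these files. The part of these markers in the paralog 13 values was not tested. Hoxa7 was at 12.6, 7.42, 8.60 and 6.60 TPM in DMSO and 7.29, 7.81, 10.3 and 12.2 TPM in CPF, with an estimate of 0.09 ± 0.31 (SE, n = 4 stage pairs) that turned to -0.07 with the coding scaling.

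**Figure D3:**
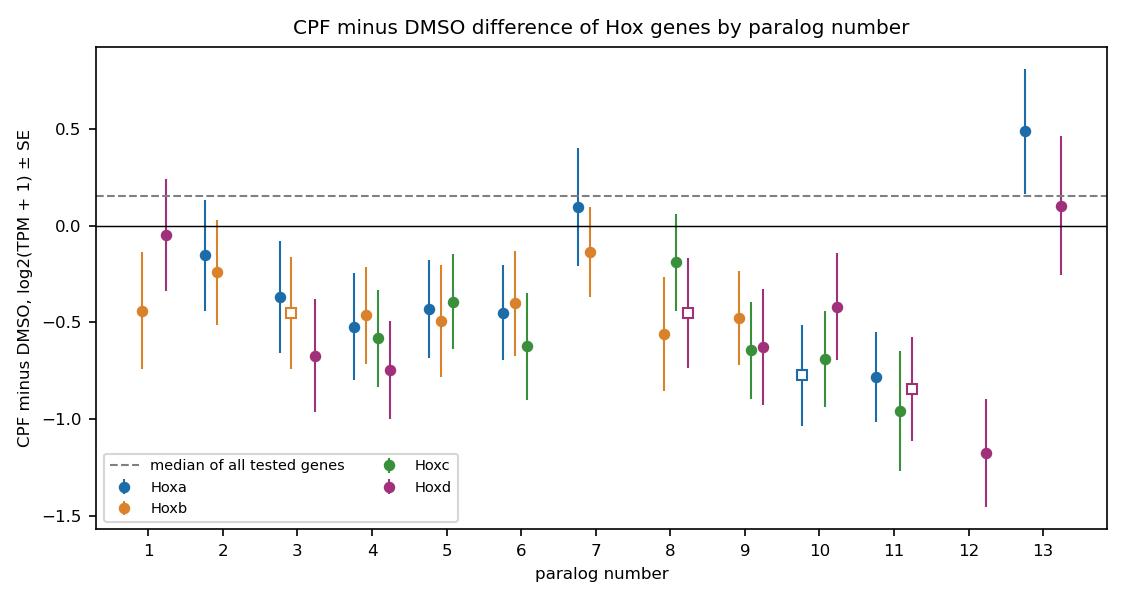
CPF minus DMSO estimate of tested Hox genes on the log2(TPM + 1) scale, with its SE, against paralog number, coloured by cluster; open squares mark genes with several RefSeq transcripts and the dashed line is the median of all tested genes at 0.15. Most estimates are below 0, and the lowest is Hoxd12 at -1.18.

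Grouped by paralog number and set against the median gene, the median estimate was -0.60 for 12 tested genes of paralogs 1 to 4, -0.60 for 14 of paralogs 5 to 9, -0.93 for 6 of paralogs 10 and 11, and -0.05 for 3 of paralogs 12 and 13. By cluster it was -0.55 for 10 Hoxa genes, -0.60 for 9 Hoxb, -0.78 for 7 Hoxc and -0.78 for 9 Hoxd genes. These are descriptions of groups of genes that share libraries, and no test compared them.

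In limma with Benjamini-Hochberg adjustment 0 of the 35 Hox genes were called in either direction, where 0.00731% of all genes were called lower and 0.154% higher in CPF. At an unadjusted p under 0.05, 11 Hox genes were lower and 0 were higher, against 1.4% of all genes lower and 8.15% higher. The ratio was below 0 at all 4 stages for 15 Hox genes against 3% of all genes, and with the coding scaling for 24 against 9.61%. Both counts include Hoxd8, which was tested only through its DMSO values. Every CPF library was below every DMSO library for 3 Hox genes (Hoxa10, Hoxa11 and Hoxb9), against 0.336% of all genes, and with the coding scaling for 12 against 1.97%. With the coding scaling 32 of the 35 estimates were below 0, where 50.7% of all genes were. These p-values measure only the spread between these samples, here the variation of a difference over 4 stages, and not the spread between animals.

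RNA of other organs differed between the agents. The sum of 10 liver markers was 206 to 5999 TPM in CPF and 22.5 to 998 TPM in DMSO, that of 8 adrenal cortex markers 69.6 to 538 against 49.3 to 69.3 TPM, and that of 9 pancreas markers 51.4 to 1843 against 35.3 to 63.9 TPM. Skeletal muscle markers (8 genes) summed to 20.5 to 687 TPM in CPF and 6.31 to 212 TPM in DMSO, and erythroid markers (8 genes) to 16.0 to 36261 against 43.9 to 7785 TPM. Sums were 26.8 to 268 against 26.8 to 36.7 TPM for 8 gonad markers, 21.3 to 230 against 10.02 to 140 TPM for 8 sympathoadrenal markers and 17.6 to 123 against 9.36 to 123 TPM for the 10 lower urinary tract and hindlimb markers. The CPF and DMSO ranges overlapped in 7 of these 8 lists, all but adrenal cortex. Every tested marker of 6 lists (8 liver, 8 sympathoadrenal, 7 adrenal cortex, 7 muscle, 4 pancreas and 3 erythroid) had an estimate above 0. So had 5 of 6 tested gonad and 7 of 8 lower tract and hindlimb markers. Of all 13677 tested genes 9934 had an estimate above 0, so such counts in short lists say little by themselves. Listed at 0 in all libraries were Trp63, Ahsg, Tnnt1, Ins2, Hbb-bt and Hba-a1.

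The kidney's own markers differed too. Nephron progenitor markers summed to 312 to 467 TPM in CPF and 462 to 662 TPM in DMSO, with 9 of 10 estimates below 0. The 10 early nephron and tubule markers summed to 150, 122, 407 and 487 TPM in DMSO. In CPF they summed to 105, 129, 434 and 2505 TPM, so the wide gap was at E18.5 only. In that CPF library Lrp2 read 1197 TPM and Slc34a1 551 TPM. Ureteric bud markers summed to 144 to 434 TPM in CPF and 192 to 222 TPM in DMSO, and stroma markers to 493 to 721 against 480 to 913 TPM. The part of any of these lists in the Hox values was not tested. Without E14.5 and E16.5, where the liver and adrenal cortex sums were highest in CPF, the Hox median relative to all genes was -0.48, 30 of 34 genes were below 0, none was at an unadjusted p under 0.05, and 0 were called. At the stages kept in that fit the liver sum still differed, at 206 TPM in CPF against 22.5 in DMSO (E12.5) and 1064 against 43.6 (E18.5). Without E16.5 alone 4 Hox genes, and without E18.5 alone 22, were at an unadjusted p under 0.05. Shares of all genes in these refits are not reported here, so their counts are not a result about Hox genes.

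At single stages there is 1 library per agent and no test. Relative to the median gene of the stage, the median Hox ratio of CPF to DMSO on the log2(TPM + 1) scale was -0.56 at E12.5, -0.57 at E14.5, -0.87 at E16.5 and -0.53 at E18.5. Before that adjustment it was -0.68, -0.54, -0.74 and 0.00, because the median gene itself was at 0.53 at E18.5. Of the 35 genes, 34, 31, 30 and 17 were below 0 at the 4 stages, against 58.7, 46.9, 37.6 and 16.7% of all genes. With the coding scaling the counts were 34, 31, 30 and 28, against 57.1, 52.6, 54.3 and 38.6% of all genes. More than 2-fold lower in CPF were 6, 4, 7 and 0 Hox genes, against 2.5, 2.16, 3.2 and 2.02% of all genes. With the coding scaling the E16.5 count was 15, and the share of all genes there is not reported here. More than 2-fold higher in CPF were 0, 2, 1 and 0 Hox genes, against 6.04, 6.18, 7.44 and 20.4% of all genes: Hoxa13 and Hoxd13 at E14.5 and Hoxa13 at E16.5. At E16.5 the lowest ratios were those of Hoxd4 and Hoxc6, both at -1.43, and at E12.5 those of Hoxd12 (-1.70) and Hoxc11 (-1.58).

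**Figure D4:**
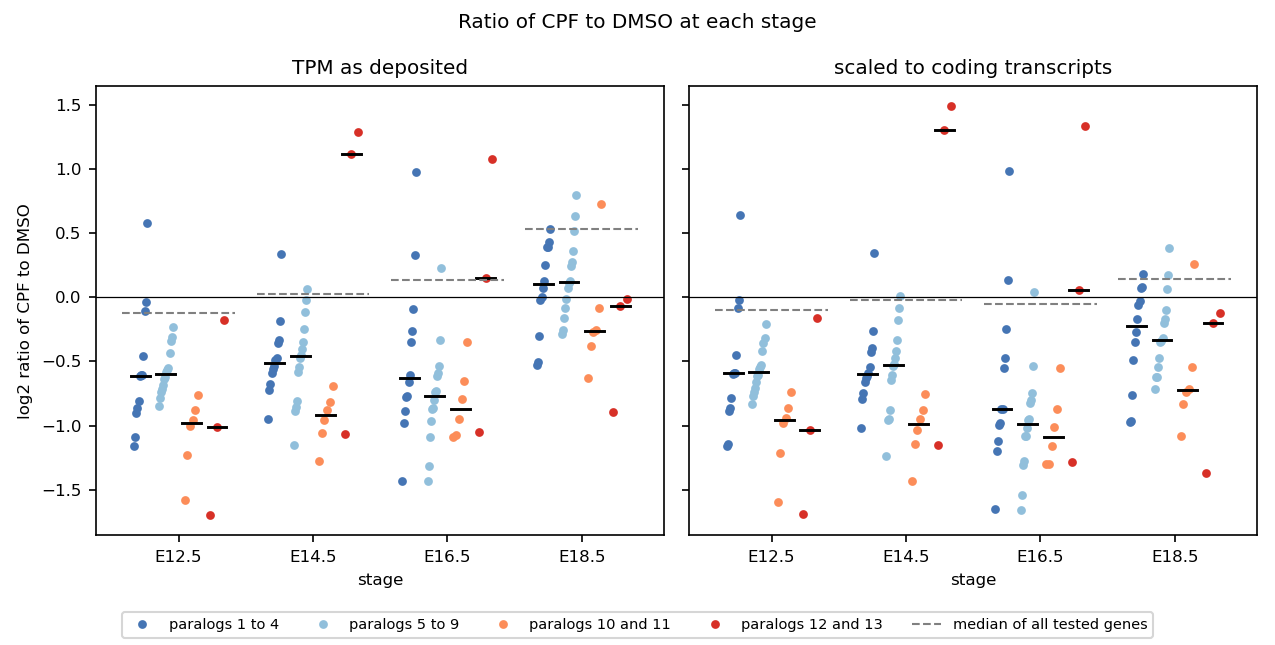
Log2 ratio of CPF to DMSO of each tested Hox gene at each stage, on the log2(TPM + 1) scale, with TPM as deposited on the left and scaled to coding transcripts on the right; colours mark paralog groups, black bars their medians and dashed lines the median of all tested genes. Most points lie below the dashed lines, which stand at 0.53 on the left and 0.14 on the right at E18.5.

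How Hox levels ran with age was asked with a line over embryonic day common to both agents. Of the 35 tested Hox genes 9 fell and 0 rose, against 6.72% of all genes that fell and 5.79% that rose (limma, adjusted p under 0.05). The 9 were Hoxa5, Hoxa6, Hoxa13, Hoxc4, Hoxc5, Hoxc9, Hoxc10, Hoxd12 and Hoxd13, and no Hoxb gene was called. The median slope was -0.10 per day on the log2 scale, against -0.03 for all genes, and 29 of 35 slopes were below 0, as were 62.3% of all.

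Hoxd12 fell by 0.36 ± 0.06 per day (SE, n = 8 libraries; limma adjusted p 0.00417), 7.09-fold from E12.5 to E18.5 in DMSO and 4.51-fold in CPF. Hoxd13 fell by 0.32 ± 0.09 per day (SE, n = 8 libraries; limma adjusted p 0.0432). The values of Hoxd13 and of Hoxa13, which fell by 0.31 ± 0.07 per day (SE, n = 8 libraries; limma adjusted p 0.0214), rest on 3.25 to 7.56 and 2.77 to 3.25 TPM at E12.5 and little later. With the coding scaling the slopes of Hoxa13 and Hoxd13 were -0.36 and -0.34 per day, steeper than that of Hoxd12 at -0.33. Hoxa13 entered the test through 4 libraries of 1 TPM or more, of which 3 were CPF libraries.

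In the Hoxc cluster 4 of 7 tested genes fell, against 6.72% of all genes. With the coding scaling 2 of them fell (Hoxc4 and Hoxc5), against 4.3% of all genes. Hoxc4, which helps to pattern the cervical region, read 28.8, 17.4, 15.5 and 10.96 TPM in DMSO and 18.52, 11.5, 9.44 and 7.43 TPM in CPF. It was lower at each later stage in both agents and fell by 0.20 ± 0.04 per day (SE, n = 8 libraries; limma adjusted p 0.0166). Hoxc5 read 28.6, 25.4, 19.1 and 13.9 TPM in DMSO and 22.4, 18.3, 12.2 and 12.3 TPM in CPF, and fell by 0.16 ± 0.04 per day (SE, n = 8 libraries; limma adjusted p 0.0325). Hoxc9 (35.0, 23.8, 21.7 and 14.3 TPM in DMSO; 23.1, 12.48, 11.5 and 11.8 TPM in CPF) and Hoxc10 fell by 0.17 ± 0.05 and 0.19 ± 0.05 per day, and in TPM both dropped most between E12.5 and E14.5.

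Of the Hoxa genes, Hoxa5, which patterns the cervical and upper thoracic region and lung, read 53.3, 35.2, 37.5 and 16.4 TPM in DMSO and 32.9, 23.2, 22.1 and 20.1 TPM in CPF. Hoxa6 read 59.7, 27.1, 30.2 and 15.9 TPM in DMSO and 32.7, 21.0, 19.7 and 15.7 TPM in CPF. Both were highest at E12.5 and lowest at E18.5 in both agents, and they fell by 0.17 ± 0.05 and 0.21 ± 0.05 per day (SE, n = 8 libraries; limma adjusted p 0.0467 and 0.0229). Their intervals overlap those of Hoxa3 and Hoxaas3. Hoxb1, a hindbrain gene, read 3.92 TPM in DMSO at E12.5 and 1.31 TPM in CPF, and did not exceed 0.584 TPM later (slope -0.21 ± 0.09 per day, limma adjusted p 0.129).

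Among genes with 1 transcript the 4 highest slope estimates were near 0, those of Hoxb9 (0.03 ± 0.04 per day), Hoxd9 (0.01 ± 0.08), Hoxb6 (0.00 ± 0.05) and Hoxb7 (0.00 ± 0.04; SE, n = 8 libraries). Hoxd9 read 38.2, 23.0, 36.8 and 20.9 TPM in DMSO and 21.7, 9.81, 16.8 and 30.2 TPM in CPF, with no steady course in either agent. Hoxa11 (-0.06 ± 0.05), Hoxd10 (-0.07 ± 0.07), Hoxd4 (-0.10 ± 0.05) and Hoxc6 (-0.10 ± 0.06) were not called, nor was Hoxc11 (-0.17 ± 0.08 per day; limma adjusted p 0.167). With the coding scaling 5 Hox genes fell (Hoxa6, Hoxa13, Hoxc4, Hoxc5 and Hoxd12) against 4.3% of all genes. Without E12.5 or without E18.5 the count was 0, with 3 and 14 Hox genes at an unadjusted p under 0.05. Without E16.5 the count was 2, and shares of all genes in these refits are not reported here.

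Whether the course over days differed between agents was asked with a product of agent and day. The test called 0 of 35 Hox genes in limma, where 0% of all genes were called in either direction. At an unadjusted p under 0.05 the slope was higher in CPF for 3 Hox genes, against 24.9% of all genes: Hoxa7 (0.23 ± 0.08 per day), Hoxd3 (0.23 ± 0.08) and Hoxb2 (0.22 ± 0.07; SE, n = 8 libraries; limma adjusted p 0.139, 0.146 and 0.132). Hoxd3 read 44.9, 30.6, 27.0 and 16.3 TPM in DMSO and 19.5, 15.4, 13.2 and 21.7 TPM in CPF, so its DMSO level went down by stage while the CPF level was highest at E18.5. In all, 32 of 35 Hox genes had an estimate above 0, as had 77.1% of all genes, and relative to the median gene the Hox median was -0.02 per day. Hoxb4 (-0.03 ± 0.09) and Hoxc4 (0.01 ± 0.07) were among the lowest estimates, and Hoxd10 stood at 0.21 ± 0.12 per day (SE, n = 8 libraries). With the coding scaling the count above 0 was 23. The share of all genes there is not reported here, so this lower count is not a result about Hox genes.

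Among the noncoding RNAs of the clusters, Hoxa11os, antisense to Hoxa11, read 65.8, 40.0, 36.6 and 35.3 TPM in DMSO and 30.8, 26.4, 20.2 and 26.7 TPM in CPF, with no overlap and an estimate of -0.72 ± 0.23 (SE, n = 4 stage pairs; limma adjusted p 0.266). Hoxd3os1 (-0.70 ± 0.33) and Hoxaas3 (-0.51 ± 0.25) were also below 0, and Hoxaas3 fell over days by 0.21 per day (limma adjusted p 0.0181). Haglr and Halr1, at 0.01 ± 0.29 and 0.21 ± 0.55 (SE, n = 4 stage pairs), were not below 0. Of 6 tested noncoding RNAs 4 were below 0 and 0 were called in the agent test, and their median was -0.56 when set against all genes. Coding genes beside the clusters were nearer to the median gene: 6 were tested, 2 were below 0, and the relative median was -0.11. Hibadh, a valine breakdown enzyme beside Hoxa, and Mtx2, a mitochondrial import gene beside Hoxd, were at 0.24 ± 0.25 and 0.04 ± 0.23 (SE, n = 4 stage pairs). Hibadh was the 1 called over days in this list and rose by 0.19 per day (limma adjusted p 0.0416), where 5.79% of all genes rose.

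Of 12 kidney genes that work with or downstream of Hox10 and Hox11, 11 were tested, 8 were below 0 in CPF minus DMSO and 0 were called. Their median was -0.72 when set against all genes. This list is not separate from the marker lists above. Six2, Eya1, Osr1, Gdnf, Itga8 and Sall1 are also nephron progenitor markers there, Ret a ureteric bud marker and Foxd1 a stroma marker. Six2, which keeps nephron progenitors from differentiating, read 82.3, 50.5, 41.6 and 35.1 TPM in DMSO and 45.6, 18.1, 19.1 and 8.38 TPM in CPF. It was lower in CPF at each stage, with overlap across stages, at -1.32 ± 0.25 (SE, n = 4 stage pairs; limma adjusted p 0.0648). Foxd1, the stromal progenitor factor, was at -1.08 ± 0.22 (limma adjusted p 0.0914) and Gdnf, the signal that draws out the ureteric bud, at -0.88 ± 0.24 (SE, n = 4 stage pairs; limma adjusted p 0.171). Over days 4 of the 11 fell, Six2, Osr1 and Foxd1 among them, where 6.72% of all genes fell.

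The genes that set or read Hox expression stood closer to the median gene. Of 17 Polycomb genes, which keep Hox genes silent, 12 were tested, 5 were below 0 and 0 were called, with a relative median of -0.08. Of 8 Trithorax-type activators 6 were tested, 2 were below 0 and 0 were called, again with a relative median of -0.08. Among 9 TALE cofactors, which bind DNA together with Hox proteins, 4 were tested, 3 were below 0 and the relative median was -0.27. The highest of them, Pbx2, was at -0.21 ± 0.24 (SE, n = 4 stage pairs) and fell over days by 0.20 per day (limma adjusted p 0.0266). Of 10 axial inputs to the clusters 6 were tested, 5 were below 0 and 0 were called, with a relative median of -0.34; Cdx1, Cdx2, Cdx4 and T were too low to test. Aldh1a2, the enzyme that makes retinoic acid, was at -0.34 ± 0.20 (SE, n = 4 stage pairs) and fell over days by 0.17 per day (limma adjusted p 0.0114).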

How the data were processed

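RNA of 8 embryonic mouse kidney libraries was sequenced, with 2 μg of RNA per library per the labels' protocols. The submitters' processing notes name Trimmomatic, STAR and mm10, without versions; the step from reads to transcripts is not stated in the sources. The authors deposited TPM for 32862 RefSeq transcripts per library, which keep no depth.

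Transcripts were summed per symbol into 24151 genes, with 52 symbols listed as dates or numbers restored from RefSeq (none in the 45 Hox rows). Log2(TPM + 1) of 13677 genes with at least 1 TPM in at least 2 libraries was fitted with limma 3.58.1 in R 4.3.3 (mean-variance trend, robust moderation) on stage plus agent (3 residual degrees of freedom), agent plus embryonic day (5), and these with their product (4). This scale understates differences of low genes. P-values were adjusted by Benjamini-Hochberg across the tested genes, and calls are under 0.05. Relative values have the median of all tested genes subtracted. The fits were first checked on simulated data in which 200 genes were made to differ. The fit of stage plus agent called 5.88% of genes with a log2 difference of 1 and 53.2% of those with 2. The fit with the product called 1.32% of genes with a slope difference of 0.25 per day. Calls of 0 therefore do not show that Hox genes were unchanged.

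Values are given for the 10 Hox genes of highest mean, Hoxb7, paralogs 10 and 11, called genes, and the 4 lowest and 4 highest estimates in each test, and for up to 4 genes of another list. Some genes that this rule names are not reported here. Tbx4, Pitx1, Upk3a, Haglr and Halr1 were chosen after their values were seen. The members and lists were chosen with earlier results of these data known. Alternatives were scaling to coding transcripts, quantile normalization, a pseudocount of 0.1, other filters, genes with 1 transcript, stages left out and other covariates. Promoter windows are from RefSeq on GRCm38.p6, the assembly that mm10 names. Protein sequences were not used here.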

Additional observations from a re-analysis of the deposited data

How the results depend on the processing

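The CPF minus DMSO median of the Hox genes relative to all genes was -0.60 and ranged from -0.70 to -0.48 over 13 alternatives, and 0 Hox genes were called in each of them. The count that fell over days was 9, with 5 under the coding scaling, 4 without a filter, 12 in DMSO libraries alone and 0 to 7 when 1 stage was left out (0 without E12.5 and without E18.5, 2 without E16.5, 7 without E14.5). The fits with a stage left out and the fit of DMSO libraries alone held fewer libraries, and why the count changed was not tested. Except for the main fit and the coding scaling, shares of all genes are not reported here for these counts. The agent by day median relative to all genes turned from -0.02 to 0.0060 (coding scaling), 0.056 (no filter) and 0.0015 (genes with 1 transcript), and ranged from -0.084 to 0.036 with 1 stage left out, so it has no stable sign. Hox genes more than 2-fold lower numbered 15 (coding scaling) and 11 (pseudocount 0.1) against 7 at E16.5, and 2 and 1 against 0 at E18.5. Shares of all genes under these 2 alternatives are not reported here. Paralogs 10 and 11 took 25.9% of the Hox sum on average over 8 libraries and 22.5% with 1-transcript genes only.

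Single genes near 0 changed sign. In CPF minus DMSO, Hoxa7 was at -0.067 (coding scaling) and -0.12 (quantile), and Hoxa13, Hoxb6 and Hoxd13 at -0.12, 0.034 and -0.51 without E14.5 and E16.5. With 1 stage left out Hoxa7 ranged from -0.14 to 0.36, Hoxb7 from -0.30 to 0.0017 and Hoxd13 from -0.29 to 0.14. Among slopes, Hoxb2 was at 0.017 (coding scaling), Hoxb7 and Hoxd9 at -0.0032 and -0.032 (E18.5 minus E12.5), and Hoxb6, Hoxb7, Hoxb9 and Hoxd9 at -0.084, -0.060, -0.0024 and -0.093 in DMSO libraries alone. With 1 stage left out slopes ranged from -0.12 to 0.044 (Hoxa11), -0.033 to 0.013 (Hoxb2), -0.014 to 0.034 (Hoxb6), -0.032 to 0.045 (Hoxb7), -0.17 to 0.070 (Hoxd10) and -0.050 to 0.17 (Hoxd9). In agent by day, Hoxc4 was at -0.068 (coding scaling) and -0.14 (quantile). With 1 stage left out, Hoxb4 ranged from -0.16 to 0.093, Hoxc4 from -0.012 to 0.017 and Hoxd10 from -0.047 to 0.35. The CPF minus DMSO fit pairs the libraries by stage, and no paired analysis by replicate number was possible because the labels carry none. Depth behind single values is unknown, which limits what can be said of Hox genes under 1 TPM.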
